A study of Homo sapiens with 6 samples.

Results

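The genes described here encode ligands that tumour and antigen presenting cells use to restrain or to stimulate immune cells. They are 7 members of the B7 family (CD274, PDCD1LG2, CD80, CD86, CD276, ICOSLG and VTCN1) together with CD47, LGALS9 and CD200, 10 genes of the 57290 in the deposited tables. They were chosen by name, partly for the higher level of CD274, PDCD1LG2 and CD47 in the comparison below, so their own differences between the groups are given as a description, with no p-value. Transcripts carrying each gene's name were taken from each library and their abundances were summed per gene. Levels below are in TPM (transcript abundance corrected for transcript length and set relative to the library's total) after scaling between libraries, and all 10 genes were found.

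B7 ligands are cell surface proteins of the immunoglobulin superfamily that bind CD28 family receptors on T cells. CD80 and CD86 engage CD28 to give co-stimulation and CTLA4 to give inhibition, PD-L1 (CD274) and PD-L2 (PDCD1LG2) inhibit T cells through PD-1, and ICOSLG stimulates them through ICOS. CD47 binds SIRPA on macrophages and acts as a signal against engulfment, and in myeloma, a cancer of plasma cells, both PD-L1 and CD47 have been studied as ways for the tumour to avoid immune attack.

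KMM1 cells, a line grown from a human multiple myeloma, were transduced with lentivirus carrying TAZ or with the empty vector WPI (control), and polyadenylated RNA was sequenced from 3 libraries per group at day 4. TAZ, encoded by WWTR1, is a transcriptional co-activator of the Hippo pathway that works through TEAD factors. Whether the libraries of a group are separate cultures is not stated, and p-values therefore describe the spread between these libraries, which may be technical. The study is 1 line read in bulk: the promoter driving TAZ and the share of cells carrying the vector are not given in the sources used here, and more cells expressing a gene cannot be told apart from more RNA per cell. Libraries were sequenced 2 to a chip with the pairs not given, so the part of the chip in a difference between the groups could not be modelled.

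WWTR1, the check on the labels, lay at 2.35, 1.21 and 1.40 TPM in control libraries 1, 2 and 3 and at 365, 138 and 145 TPM in TAZ libraries 1, 2 and 3. Between 1099.95 and 2033 megabases were aligned per control library and between 1130 and 1608 per TAZ library. The plasma cell markers summed to 2407 to 3130 TPM in control and 2837 to 3233 TPM in TAZ libraries. The largest were IGJ (1147 ± 88.3 and 1841 ± 253 TPM, SD, n = 3) and XBP1 (705 ± 480 and 732 ± 111 TPM). XBP1 was at 157 TPM in control library 2, against 908 and 1051 TPM in control libraries 1 and 3. Of their 9 tested genes 3 fell (SDC1, IRF4 and SLAMF7), and the median log2 difference was -0.69. For these and the other markers, 2.25% of all tested genes were called higher and 0.964% lower (limma adjusted p under 0.05). Every TAZ library lay below every control library in 4 of the 9 and above in 1, beside 14.8% and 10.1% of all tested genes. B cell markers summed to 7.56 to 11.5 TPM in control and 12.1 to 17.0 TPM in TAZ libraries, T and NK cell markers to 3.53 to 5.04 and 6.20 to 8.61 TPM, and myeloid markers to 5.10 to 5.91 and 2.02 to 2.18 TPM. NKG7, CD68, S100A9 and FCER1A were listed at 0 in all 6 libraries. Epithelial and packaging line markers summed to 200 to 327 TPM in control and 972 to 2313 TPM in TAZ libraries, most of it KRT8 (167 ± 45.5 and 1337 ± 762 TPM). Of their 6 tested genes 4 were called higher (KRT8, KRT18, KRT5 and CLDN4), while EPCAM was at 53.3 and 49.1 TPM and CDH1 at 48.7 and 25.2 TPM, with every TAZ library below every control library. Fibroblast markers summed to 2.16 to 2.91 TPM in control and 37.9 to 44.9 TPM in TAZ libraries, with 2 of 3 tested genes higher (LUM and DCN). The B cell, T and NK cell, epithelial and fibroblast sums were thus higher in every TAZ library than in any control library, as were the PD-1 ligands, and the part of such cells in the results below was not tested.

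Both ligands of PD-1 were barely detected in the controls and clearly expressed in the TAZ libraries. CD274 (ENSG00000120217.9, hg19 chr9:5450503-5470566, plus strand) was at 0.523, 0.438 and 0.531 TPM in control libraries 1, 2 and 3 and at 9.33, 9.83 and 10.4 TPM in TAZ libraries 1, 2 and 3. PDCD1LG2 (ENSG00000197646.6, chr9:5510545-5571282, plus strand) was at 0.252, 0.376 and 0.220 TPM in the controls and at 23.7, 21.0 and 17.7 TPM in the TAZ libraries. Both genes were low in every control library and high in every TAZ library, with no overlap.

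The mean of CD274 was 0.497 ± 0.0516 TPM (SD, n = 3) in control and 9.86 ± 0.553 TPM (SD, n = 3) in TAZ libraries, a ratio of means of 19.8. For PDCD1LG2 the means were 0.283 ± 0.0821 and 20.8 ± 3.00 TPM (SD, n = 3 each), a ratio of 73.5. On the scale of the model, log2(TPM + 1), which understates the change of genes at low levels, the difference (TAZ minus control) was 2.86 ± 0.16 (SE) for CD274 and 4.08 ± 0.18 for PDCD1LG2. PD-L2 transcripts exceeded PD-L1 transcripts in every TAZ library, by ratios of 2.54, 2.14 and 1.695, whereas the ratio was 0.482, 0.858 and 0.415 in the controls. The low control values rest on few reads, with 1048 to 1676 aligned bases on CD274 and 282 to 817 on PDCD1LG2 per control library, against 22709 to 27727 and 28355 to 43031 in TAZ libraries.

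**Figure D1:**
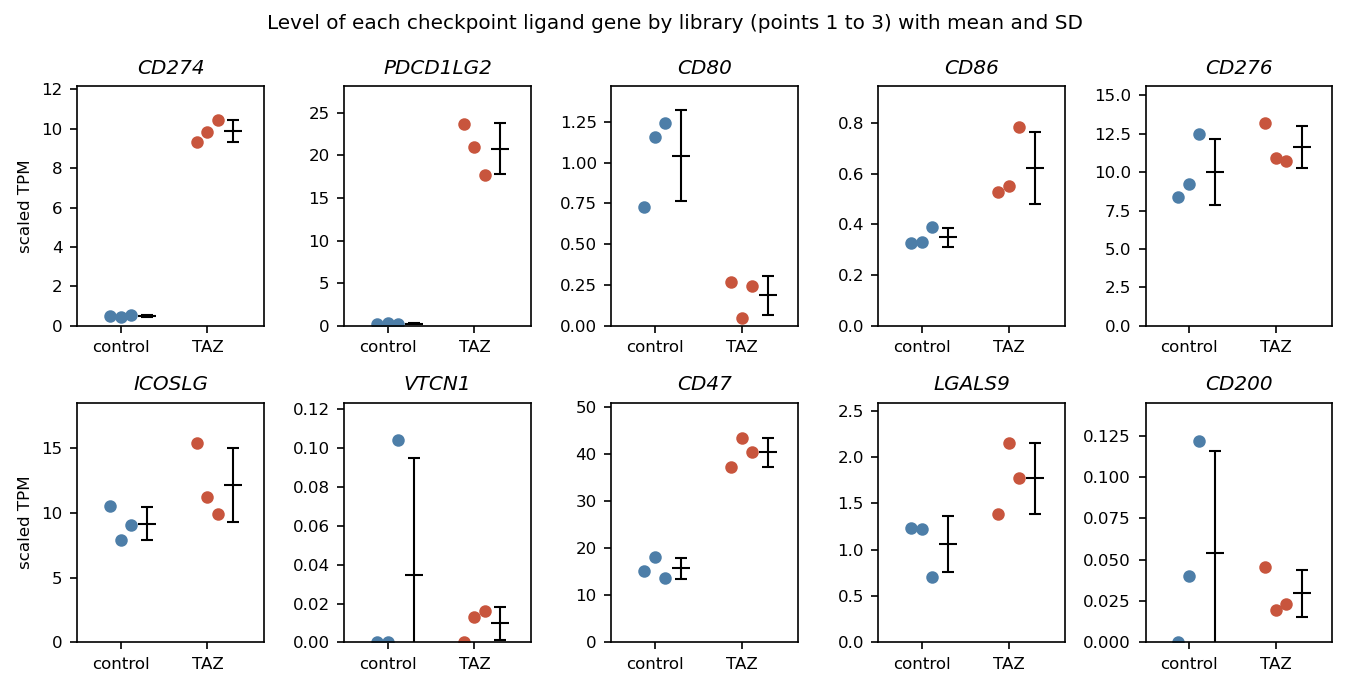
Scaled TPM of the 10 ligand genes in the 3 control (blue) and 3 TAZ (red) libraries, each panel on its own linear axis from 0; points from left to right are libraries 1 to 3, and the bar beside them is the mean with SD. CD274, PDCD1LG2 and CD47 are higher in every TAZ library than in any control library, CD80 is lower, and VTCN1 and CD200 stay under 0.13 TPM.

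The read depth of single exons differed in the same direction. Exons 3 and 4 of CD274, which encode the IgV-like domain that touches PD-1 and the IgC-like domain, had depths per aligned gigabase of 0.303 ± 0.266 and 0 in control and 10.1 ± 2.21 and 6.93 ± 0.841 in TAZ libraries (SD, n = 3). The last exon, 2708 bases that hold most of the reads, went from 0.295 ± 0.0685 to 5.28 ± 0.893. Exons 1, 2 and 6, of 72, 66 and 60 bases, were listed at 0 in all 6 libraries. Short exons are mostly listed at 0 in these files: among transcripts with a depth of at least 5, between 49.9% and 55.6% of exons of 150 to 199 bases and between 68.8% and 71.8% of exons under 50 bases were at 0, against 2.99% to 3.98% of those of 500 bases or more. A 0 on such an exon therefore does not show that it was skipped.

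All of the CD274 signal lay on 1 of its 5 annotated transcripts, the full-length ENST00000381577.3, in all 6 libraries. For PDCD1LG2 the files put 61.2% to 68.9% of the TPM in TAZ libraries on ENST00000397745.2, which lacks exon 4, and 31.1% to 38.8% on ENST00000397747.3, which has it. The exon depths do not give those proportions. Exon 4, which encodes the IgC-like domain, had 92.9%, 105% and 75.7% of the depth of exon 3, the IgV-like exon, in TAZ libraries 1, 2 and 3. In TAZ library 1, the transcript with exon 4 was listed at 0 on exon 3 and the other transcript carried all the depth of that shared exon, so the split between the transcripts is left uninterpreted here and only the gene total is used. In the control libraries exons 1, 3 and 4 of PDCD1LG2 were listed at 0 and its signal, 0.241 ± 0.0557 per gigabase, lay on the last exon alone.

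**Figure D2:**
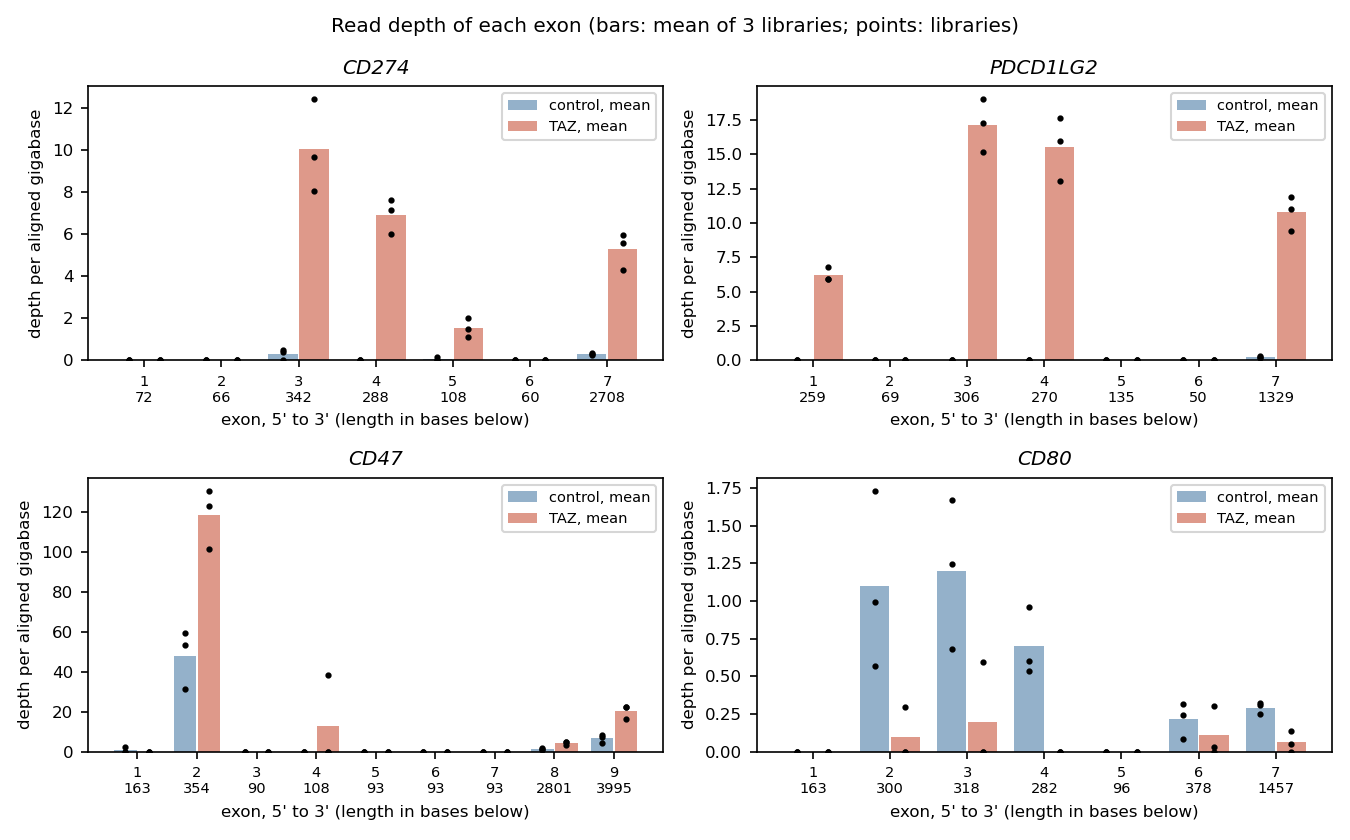
Read depth per aligned gigabase for each exon of CD274, PDCD1LG2, CD47 and CD80, numbered 5′ to 3′ with the length in bases under each number; bars are means of 3 control (blue) or 3 TAZ (red) libraries and black points are libraries. Depth rises in TAZ on the exons above 200 bases of CD274, PDCD1LG2 and CD47 and is lower on those of CD80, while most shorter exons are at 0 in both groups.

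The sequences before the start sites of CD274, of CD47 and of CD80 are printed for the called members that have a promoter window and for CD80, which was lower in every TAZ library, and because CD274 is a textbook target of interferon gamma through IRF1. Each is the 250 bases upstream of the start, 5′ to 3′ on the gene's strand, from RefSeq (GRCh38.p14, another build than the hg19 of the expression files). Capitals mark matches to the motifs searched. The bases just after the start were found in an annotated transcript of the gene for CD274, but not for CD47 or CD80. The positions are chr9:5450292-5450541 (plus strand) for CD274, chr3:108091032-108091281 (minus strand) for CD47 and chr3:119559615-119559864 (minus strand) for CD80.
CD274: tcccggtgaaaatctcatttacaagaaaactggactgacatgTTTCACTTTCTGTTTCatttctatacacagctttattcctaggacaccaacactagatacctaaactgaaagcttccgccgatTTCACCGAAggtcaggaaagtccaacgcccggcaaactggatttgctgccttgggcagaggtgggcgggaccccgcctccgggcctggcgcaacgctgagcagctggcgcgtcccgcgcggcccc
CD47: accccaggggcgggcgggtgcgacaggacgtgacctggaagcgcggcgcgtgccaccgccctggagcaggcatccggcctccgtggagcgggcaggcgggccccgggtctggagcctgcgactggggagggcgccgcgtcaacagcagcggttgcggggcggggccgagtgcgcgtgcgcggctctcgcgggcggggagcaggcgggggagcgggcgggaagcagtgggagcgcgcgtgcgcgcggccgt
CD80: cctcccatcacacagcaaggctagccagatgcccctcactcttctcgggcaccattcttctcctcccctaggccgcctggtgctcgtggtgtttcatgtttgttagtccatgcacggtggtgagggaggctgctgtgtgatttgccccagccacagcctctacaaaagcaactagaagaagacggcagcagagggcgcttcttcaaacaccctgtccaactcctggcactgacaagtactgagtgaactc
In the CD274 window, capitals nearest the start mark a gamma-activated sequence (GAS, TTCNNNGAA), 125 to 117 bases before it and matching on both strands. The longer capital run holds 2 overlapping matches on the minus strand to an interferon response element, searched as a pair of GAAA words separated by any 2 bases, at 208 to 199 and 202 to 193 bases before the start.

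Matches were sought on both strands for these motifs and for the TEAD motif GGAATG, the AP-1 motif TGANTCA and the canonical NF-kB decamer. Of 35116 RefSeq windows of the same 250 bases, 6.57% held the GAS letters, 3.02% the interferon response element, 11.9% the TEAD, 6.57% the AP-1 and 0.179% the NF-kB motif. Windows were found for 9 of the 10 members (11 windows), all but PDCD1LG2, and the CD274 window was the only one with a match to any of these motifs. The CD47 window is 79.6% G and C, that of CD274 54.8% and that of CD80 56.0%, against a median of 58.0% over all windows. A match is a description of letters, not evidence of binding, and the absence of one speaks only of this window.

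CD47, the ligand of SIRPA, was by gene total the most abundant of the 10 genes in both groups. Its level (ENSG00000196776.10, chr3:107762145-107809872, minus strand) was 15.2, 18.2 and 13.7 TPM in control libraries 1, 2 and 3 and 37.3, 43.5 and 40.4 TPM in TAZ libraries 1, 2 and 3. Every TAZ library lay above every control library, with means of 15.7 ± 2.31 and 40.4 ± 3.11 TPM (SD, n = 3 each) and a ratio of 2.57. The log2 difference was 1.31 ± 0.17 (SE). CD47 no longer passed the threshold of the model with TAZ library 2 left out (1.26) or with TAZ library 3 left out (1.31).

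CD47 was higher on its IgV exon as well as at its 3′ end. Exon 2, 354 bases that encode the domain bound by SIRPA, had a depth of 48.0 ± 14.7 per gigabase in control and 118 ± 15.2 in TAZ libraries (SD, n = 3), and the last exon 6.73 ± 1.97 and 20.4 ± 3.52. The files divide CD47 between the coding ENST00000355354.7 and ENST00000471694.1, a transcript annotated as retaining an intron, which took 42.9% to 71.6% of the gene's TPM in control and 57.8% to 63.5% in TAZ libraries. In deposited TPM the coding transcript alone was listed at 4.30, 7.93 and 6.82 in control and 15.1, 19.7 and 18.1 in TAZ libraries. That is below the gene total of CD276 in each control library and that of PDCD1LG2 in each TAZ library. Exon 8, a stretch of 2801 bases, holds exons of both transcripts, so its depth is not that of the intron-retaining transcript alone. It had 13.3% to 22.5% of the depth of the last exon in control and 19.6% to 21.2% in TAZ libraries, and these ranges overlap.

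CD80 went the other way from the PD-1 ligands, at levels that were low throughout. It (ENSG00000121594.7, chr3:119243140-119278449, minus strand) was at 0.725, 1.16 and 1.25 TPM in the controls and at 0.267, 0.0509 and 0.247 TPM in the TAZ libraries. Every TAZ library lay below every control library, with means of 1.04 ± 0.278 and 0.188 ± 0.119 TPM (SD, n = 3 each), a ratio of 0.180. With a mean below 1 TPM over the 6 libraries, CD80 was outside the genes tested, and in the fit with no filter on low values its log2 difference of -0.78 did not pass. The values rest on 1738 to 3189 aligned bases per control library and 87.9 to 487 per TAZ library. Exon 3, the IgV-like exon, had a depth of 1.20 ± 0.495 per gigabase in control and 0.198 ± 0.343 in TAZ libraries, and exon 4 went from 0.699 ± 0.230 to 0 in all 3.

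CD86, the other ligand of CD28 and CTLA4, was at 0.325, 0.330 and 0.392 TPM in the controls and at 0.527, 0.552 and 0.785 TPM in the TAZ libraries. The groups did not overlap, with TAZ higher, but the means of 0.349 ± 0.0372 and 0.621 ± 0.142 TPM (SD, n = 3 each) lie below the filter and the gene was not tested. The order of the 2 genes was reversed: the ratio of CD80 to CD86 was 2.23, 3.51 and 3.18 in the controls and 0.506, 0.0922 and 0.315 in the TAZ libraries. Their sum was 1.39 ± 0.305 TPM in control and 0.809 ± 0.215 TPM in TAZ libraries (SD, n = 3 each). The ranges did not overlap after scaling, but in deposited TPM the sum in TAZ library 3, 1.27, lay above that in control library 1, 1.04.

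CD276 (B7-H3, a ligand whose receptor on T cells is not settled) was at 8.35, 9.24 and 12.5 TPM in the controls and at 13.2, 10.9 and 10.7 TPM in the TAZ libraries. The groups overlapped, and the log2 difference was 0.21 ± 0.20 (SE). In deposited TPM, without scaling, they did not overlap (8.30 to 10.9 in control and 12.7 to 13.2 in TAZ libraries) and the difference was 0.45. ICOSLG was at 10.5, 7.95 and 9.05 TPM in the controls and at 15.4, 11.2 and 9.95 TPM in the TAZ libraries. These groups overlapped too, with a log2 difference of 0.36 ± 0.21 (SE). In deposited TPM they were apart as well (7.51 to 10.5 and 12.2 to 14.8), with a difference of 0.60, and neither gene passed the threshold in any of the 15 alternative settings.

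LGALS9 encodes galectin-9, a secreted sugar-binding ligand of TIM-3. It was at 1.24, 1.23 and 0.709 TPM in the controls and at 1.38, 2.15 and 1.78 TPM in the TAZ libraries. The groups did not overlap but TAZ library 1 lay close to the upper controls, and the log2 difference of 0.43 ± 0.22 (SE) did not pass. Its near-identical copies LGALS9B and LGALS9C, which can share reads with it, had means of 0 and 0.343 TPM in control and 0.102 and 0.214 TPM in TAZ libraries.

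VTCN1 (B7-H4) and CD200, a ligand that restrains myeloid cells, were at the floor. VTCN1 was listed at 0 in control libraries 1 and 2 and TAZ library 1 and was at most 0.104 TPM, in control library 3. CD200 reached at most 0.122 TPM, also in control library 3, and rested on at most 140 aligned bases in any library. Neither gene was tested, and no direction is drawn from these values.

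The make-up of the 7 B7 genes taken here differed between the groups. Other B7 genes are not in the sum. Among them is NCR3LG1 (B7-H6), named after its values were seen, at 7.33 ± 1.90 TPM in control and 4.62 ± 0.557 TPM in TAZ libraries (limma adjusted p = 0.274). The members were chosen partly for the rise of CD274 and PDCD1LG2, so the shares are a description of that rise. The summed level of the 7 B7 genes was 20.7, 19.5 and 24.01 TPM in control libraries 1, 2 and 3 and 62.4, 53.6 and 49.8 TPM in TAZ libraries 1, 2 and 3. In the controls ICOSLG held 43.1 ± 6.89% and CD276 46.5 ± 5.85% of that sum (SD, n = 3), CD80 4.87 ± 1.25% and the PD-1 ligands together 3.68 ± 0.524%. In the TAZ libraries the PD-1 ligands held 55.6 ± 2.41%, with PDCD1LG2 at 37.5 ± 1.88% and CD274 at 18.1 ± 3.00%, while ICOSLG held 21.9 ± 2.48%, CD276 21.0 ± 0.562% and CD80 0.339 ± 0.214%. The shares of ICOSLG and CD276 were lower although their levels did not pass the test, since the sum they are taken from was larger.

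Ranked by gene total in scaled TPM, the order in the controls was CD47, CD276, ICOSLG, LGALS9, CD80, CD274, CD86, PDCD1LG2, with CD200 and VTCN1 last. The ranges of CD276 and ICOSLG, of LGALS9 and CD80, and of CD86 and PDCD1LG2 overlapped there. In the TAZ libraries it was CD47, PDCD1LG2, ICOSLG, CD276, CD274, LGALS9, CD86, CD80, CD200 and VTCN1. PDCD1LG2 stood below CD86 in the controls and next to CD47 in the TAZ libraries. ICOSLG and CD276 overlapped there, as did ICOSLG and CD274.

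Of the 10 members, 6 passed the filter of a mean of at least 1 TPM, some through the TAZ libraries alone. Of these 6, 3 were called higher (CD274, PDCD1LG2 and CD47) and 0 lower by limma at an adjusted p under 0.05, beside 2.25% of all 19390 tested genes called higher and 0.964% called lower. In 4 of the 6 (with LGALS9) every TAZ library lay above every control library, as in 10.1% of tested genes (CD276 and ICOSLG joined them in deposited TPM), while 14.8% of tested genes had every TAZ library below. The choice of the members used this contrast, so nothing is read from these counts. By log2 difference PDCD1LG2 ranked 20, CD274 96 and CD47 533 among the 19390, whose median was -0.05. Deposited TPM without scaling moved that median to 0.17 and left all 3 called, with CD47 at 1.57.

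CD28, the receptor of CD80 and CD86, is itself expressed by many myeloma cells, and it was abundant in KMM1. It rose from 112, 112 and 109 TPM in the controls to 180, 209 and 198 TPM in the TAZ libraries (0.81 ± 0.15 on the log2 scale, limma adjusted p = 0.0421). The receptor was higher in the same libraries in which CD80 was lower and CD86 higher. The call of CD28 was lost on leaving out any 1 of the 6 libraries, with log2 differences between 0.75 and 0.86. Of the 14 receptors listed, 3 were tested, and CD28 alone passed, beside 2.25% of all tested genes called higher. CD28 was also alone at an unadjusted p under 0.05. PDCD1, the receptor PD-1 of both CD274 and PDCD1LG2, was at 8.84 ± 2.00 TPM in control and 5.95 ± 1.48 TPM in TAZ libraries (limma adjusted p = 0.331). CTLA4, the inhibitory receptor for CD80 and CD86, was at 2.62 ± 0.836 and 2.74 ± 0.701 TPM (limma adjusted p = 0.924). SIRPA, the receptor of CD47, was near the floor, at 0.0546 and 0.0518 TPM. HAVCR2 (TIM-3), the receptor of LGALS9, was at 0.182 and 0.462 TPM, ICOS, that of ICOSLG, at 0.284 and 0.311 TPM and CD200R1, that of CD200, at 0.192 and 0.317 TPM, and these genes were not tested.

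The list of B7 relatives held 9 tested genes, mostly butyrophilins, with some receptors that are not B7 ligands. Of these, 1 rose and 0 fell (6 and 1 at an unadjusted limma p under 0.05), beside 2.25% and 0.964% of tested genes. The median log2 difference of the 9 was 0.71. In 6 every TAZ library lay above every control library, beside 10.1% of all tested genes. The share of all tested genes at an unadjusted p under 0.05 was not computed, so nothing is read from such counts here or below. The gene that rose was ILDR2, an immunoglobulin domain protein of the B7-like group, from 0.918 ± 0.208 to 2.73 ± 0.164 TPM (limma adjusted p = 0.0426), a call that was lost on leaving out any 1 library. Without scaling 4 of the 9 were called higher, and 2 with upper-quartile scaling. BTN3A1, a butyrophilin that T cells of the gamma delta class sense, was at 20.6 ± 3.37 TPM in control and 37.3 ± 3.01 TPM in TAZ libraries without passing (limma adjusted p = 0.0671), but passed without scaling (0.0381) and with upper-quartile scaling (0.0416). BTN3A2 was at 36.9 ± 7.48 and 59.6 ± 4.08 TPM (limma adjusted p = 0.134), and the near-identical sequences of the BTN3A genes make the split between them uncertain.

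Interferon gamma is the best known inducer of CD274 and PDCD1LG2, acting through its receptor, JAK1 and JAK2 and, further down, IRF1. Of 14 tested genes of this axis, 5 rose and 0 fell, beside 2.25% and 0.964% of all tested genes. At an unadjusted limma p under 0.05 the counts were 5 and 1, and the median log2 difference of the 14 was 0.47. IRF1 rose from 6.28, 6.07 and 5.65 TPM in the controls to 86.7, 73.2 and 77.9 TPM in the TAZ libraries (log2 difference 3.52 ± 0.15, limma adjusted p = 0.000228). Every TAZ library lay above every control library, as in 10.1% of all tested genes. The part of IRF1 in the levels of CD274 and PDCD1LG2 was not tested.

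IFNG, the cytokine gene itself, was listed at 0, 0.124 and 0.285 TPM in the controls and rose to 5.10, 4.24 and 5.36 TPM in the TAZ libraries (log2 difference 2.38 ± 0.19, limma adjusted p = 0.00187). T and NK cells are its usual source. Of their markers NKG7 was listed at 0 in every library and CD3D averaged 0.0373 TPM in TAZ libraries. TRAC averaged 1.58 TPM in control and 3.99 TPM in TAZ libraries and CD8A 1.14 and 1.92 TPM, neither past the threshold (limma adjusted p = 0.203 and 0.262). For both, every TAZ library lay above every control library and the unadjusted limma p was under 0.05. GNLY averaged 0.0627 and 0.657 TPM and CD3E 0.695 and 0.282 TPM, each without overlap between the groups and in opposite directions, and neither was tested. The part of such cells in the IFNG level was not tested. STAT2 rose from 31.7 ± 4.02 to 105 ± 12.01 TPM (limma adjusted p = 0.00424). NLRC5, an activator of MHC class I genes, rose from 9.39 ± 3.12 to 36.5 ± 2.93 TPM (limma adjusted p = 0.00958, not called without control library 2 or without TAZ library 2). SOCS3, a feedback inhibitor of cytokine signalling, rose from 3.70 ± 0.384 to 11.1 ± 1.16 TPM (limma adjusted p = 0.00735, not called without TAZ library 2). IFNGR2, a receptor chain, was at 22.8 ± 13.3 and 23.7 ± 2.29 TPM (limma adjusted p = 0.804), and STAT3 and IRF2 did not pass either (limma adjusted p = 0.885 and 0.212). Whether any of these genes acts on CD274 or PDCD1LG2 was not tested by this design.

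**Figure D3:**
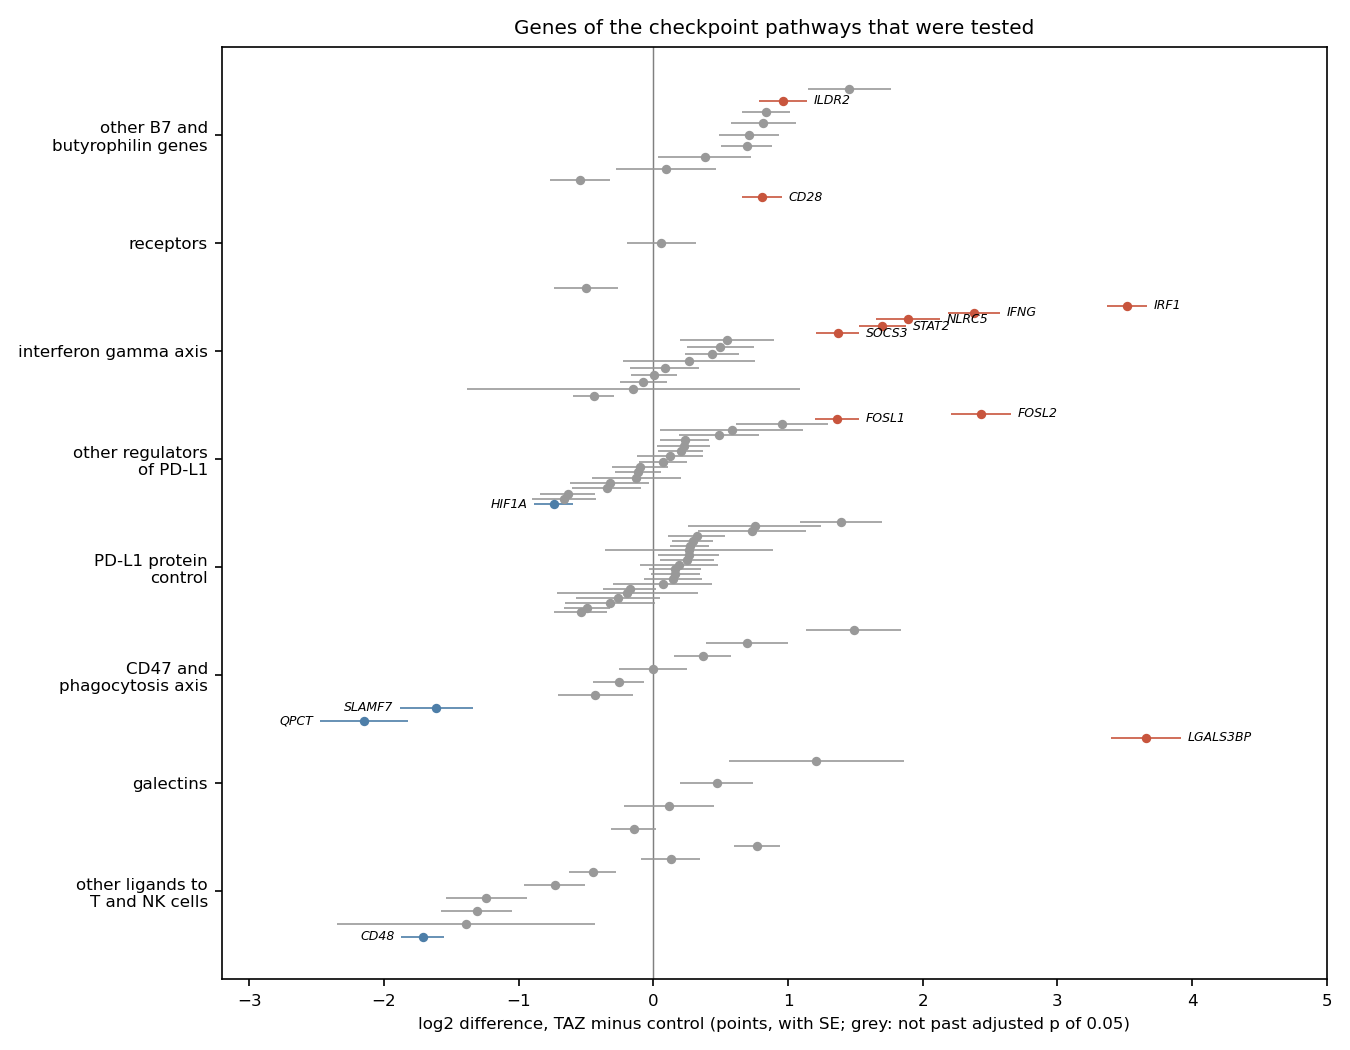
Log2 difference (TAZ minus control, on log2(TPM + 1)) with SE for the tested genes of 8 lists around the checkpoint ligands; red and blue mark genes higher or lower at an adjusted p under 0.05. The interferon gamma axis holds 5 called genes of 14 tested, all higher, and the 20 tested genes that act on the PD-L1 protein hold none. Of all tested genes 2.25% were called higher and 0.964% lower, so 0 of 20 lies near that share.

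Other genes known to act on PD-L1 included members that moved in both directions. Among 18 tested transcriptional and signalling regulators, 2 rose and 1 fell, beside 2.25% and 0.964% of all tested genes. The median log2 difference of the 18 was 0.10. The AP-1 genes FOSL1 and FOSL2 rose from 1.63 ± 0.228 to 5.77 ± 0.259 TPM (limma adjusted p = 0.00744, not called without TAZ library 2) and from 2.86 ± 0.870 to 19.6 ± 2.44 TPM (limma adjusted p = 0.00271). HIF1A, the hypoxia factor, fell from 32.5 ± 1.298 to 19.1 ± 0.936 TPM (limma adjusted p = 0.0494), a call that was lost on leaving out any 1 library and without scaling (-0.49). MYC, a reported activator of both CD274 and CD47, was at 504 ± 110 TPM in control and 315 ± 55.4 TPM in TAZ libraries (limma adjusted p = 0.231). JUN and RELA did not pass (limma adjusted p = 0.189 and 0.827).

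None of 20 tested genes that act on the PD-L1 protein passed the limma threshold in either direction. Of all tested genes 2.25% were called higher and 0.964% lower, so 0 of 20 lies near that share. The median log2 difference of the 20 was 0.18. At an unadjusted p under 0.05, 1 was higher and 2 were lower, and without scaling 1 was called higher. Among the most abundant of these, USP22, a deubiquitinase, was at 159 ± 22.3 TPM in control and 112 ± 4.67 TPM in TAZ libraries (limma adjusted p = 0.214), and CSNK1E and TMUB1 were at limma adjusted p = 0.464 and 0.937. RNA levels say nothing of the amount of PD-L1, PD-L2 or CD47 protein on the cells, which was not analysed here.

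Around CD47, 0 of 8 tested genes rose and 2 fell, beside 2.25% and 0.964% of all tested genes. At an unadjusted limma p under 0.05 the counts were 1 and 2, and the median log2 difference of the 8 was -0.13. QPCT, a glutaminyl cyclase, fell from 279, 466 and 655 TPM in the controls to 102, 111 and 84.3 TPM in the TAZ libraries (log2 difference -2.15 ± 0.33, limma adjusted p = 0.0200), a call that was lost without control library 2 or without any 1 of the TAZ libraries. Its relative QPCTL, the cyclase of the Golgi that modifies CD47 for SIRPA binding, was at 22.6 ± 3.80 and 18.7 ± 2.14 TPM (limma adjusted p = 0.514). SLAMF7, a plasma cell surface protein that promotes engulfment and is a drug target in myeloma, fell from 224, 183 and 118 TPM to 45.96, 60.5 and 58.9 TPM (limma adjusted p = 0.0302), lost without control library 1 or 2 or without any 1 TAZ library. B2M, the light chain of MHC class I, was at 622 ± 252 TPM in control and 1640 ± 206 TPM in TAZ libraries without passing (limma adjusted p = 0.0935). Without scaling B2M was called higher (log2 difference 1.75, limma adjusted p = 0.0233) and SLAMF7 was not called (-1.35). CALR, a signal for engulfment, had a limma adjusted p of 0.412.

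Ligands outside the B7 family that act on T and NK cells held 8 tested genes. Of these, 0 rose and 1 fell (1 and 5 at an unadjusted limma p under 0.05), beside 2.25% and 0.964% of tested genes. The median log2 difference of the 8 was -0.99. CD48, the ligand of 2B4 on NK cells, fell from 308, 337 and 282 TPM in the controls to 88.5, 90.6 and 102 TPM in the TAZ libraries (log2 difference -1.71 ± 0.16, limma adjusted p = 0.00289). The co-stimulatory ligand CD70 was at 457 ± 122 and 180 ± 32.0 TPM (limma adjusted p = 0.0548) and the adhesion ligand ICAM1 at 368 ± 95.4 and 157 ± 45.7 TPM (limma adjusted p = 0.0968), neither past the threshold. PVRL2, a ligand of TIGIT, had a limma adjusted p of 0.784. Among 5 tested galectins and galectin-binding genes, a list without the member LGALS9, LGALS3BP rose from 3.44 ± 0.286 to 57.2 ± 20.8 TPM (limma adjusted p = 0.00111). The abundant LGALS1, LGALS3 and LGALS8 did not pass (limma adjusted p = 0.378, 0.876 and 0.669).

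CD274 and PDCD1LG2 lie next to each other on chromosome 9, their starts 60.0 kilobases apart, and their neighbours show how far along the chromosome the levels differed. Of 35 genes overlapping the 500 kilobases on either side of the CD274 start, 14 were tested. Besides the PD-1 ligands 12 were tested, of which 1 rose and 0 fell, beside 2.25% and 0.964% of all tested genes. At an unadjusted limma p under 0.05 the counts were 3 and 1, and the median log2 difference of the 12 was 0.13. The gene that rose was RLN2, the hormone relaxin 2 (chr9:5299868-5304969, minus strand), whose start lies at -145.5 kilobases from that of CD274. It rose from 1.72, 3.00 and 3.14 TPM in the controls to 60.6, 67.8 and 59.6 TPM in the TAZ libraries (log2 difference 4.16 ± 0.21, limma adjusted p = 0.000322). Its near-identical neighbour RLN1, named after its values were seen, was at 0.754 ± 0.664 and 3.39 ± 1.36 TPM (limma adjusted p = 0.140), and reads may be split between these copies. PLGRKT, the tested gene between RLN1 and CD274, was at 24.88 ± 8.22 and 25.9 ± 2.72 TPM (limma adjusted p = 0.861).

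**Figure D4:**
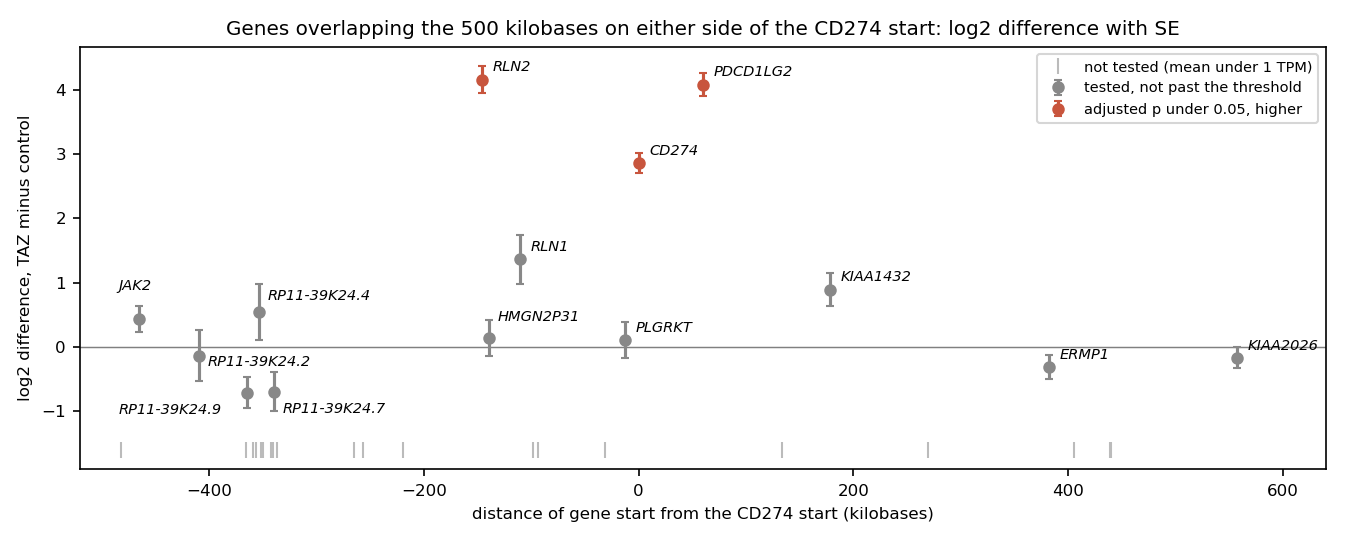
Log2 difference (TAZ minus control) with SE for tested genes overlapping the 500 kilobases on either side of the CD274 start, by distance of each gene's start from it in kilobases; ticks mark genes that were not tested. RLN2, CD274 and PDCD1LG2 stand at 2.86 or above and the other tested genes at 1.36 or below.

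Over the 6 libraries the genes whose log2 levels lay closest to those of CD274 were ANKRD1, TGFB2, HBEGF, CLDN16 and DKK1, with Pearson correlations of 0.9996, 0.9996, 0.9995, 0.9993 and 0.9992. ANKRD1, a well known TAZ and TEAD target, went from 0.0885 ± 0.105 TPM in control to 232 ± 16.5 TPM in TAZ libraries, and HBEGF, an EGF family ligand, from 1.39 ± 0.127 to 71.6 ± 3.01 TPM (SD, n = 3). These correlations over 6 points in 2 groups reflect the difference between the groups, and 220 tested genes had one above 0.98.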

How the data were processed

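Polyadenylated RNA of 3 control and 3 TAZ libraries of KMM1 was analysed, grouped and numbered as in the labels. The authors used, per the submitters' processing notes, STAR 2.3.0, Bowtie2 2.0.0 and StringTie 1.3.3b on hg19. Per the file headers, the deposited values are coverage, FPKM and TPM for each annotated transcript and coverage for each exon, 1 run per library. The annotation release and the use of strand are not given in the sources used here. No read counts were used, so tests for counts were not run.

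Deposited TPM was summed per gene and scaled by the median of ratios over the 28148 genes above 0 in every library (factors 0.873 to 0.994 for control and 0.962 to 1.23 for TAZ libraries). The 19390 genes whose mean deposited TPM reached 1 entered limma 3.58.1 under R 4.3.3 as log2 of scaled TPM plus 1 (lmFit, eBayes with trend and robust), without a block, with Benjamini-Hochberg adjustment at 0.05, and the procedure was tested on simulated data. The total of aligned bases came from the ratio of coverage to FPKM, and exon depth was divided by it.

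The members and gene lists were chosen with earlier results of these data known. Some genes of these pathways are not reported here and enter no count of a list. Named are all members, all called genes of the lists, the 3 most abundant tested genes of a list that were not called (at most), WWTR1 and the 5 genes nearest to CD274 by correlation. Alternatives covered scaling, unit, pseudocount, filter, limma settings, a replicate block and leaving out each library. Promoter windows came from RefSeq.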

Additional observations from a re-analysis of the deposited data

How the results depend on the processing

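CD274 (log2 difference 2.27 to 4.06) and PDCD1LG2 (3.34 to 5.78) were called in all 15 alternative settings and CD47 (1.22 to 1.57) in 12 of 15, not without TAZ library 2, without TAZ library 3 or with the replicate block (1.31). These genes were chosen partly for this rise, so the counts describe the settings and lend it no support. The number of genes called, 623, was 352 with no filter on low values, 236 with the replicate block and between 278 (without TAZ library 2) and 774 (without control library 3) on leaving out 1 library. Pathway genes called, 15, were 10 with no filter, 8 with the replicate block and between 7 (without TAZ library 2) and 13 (without control library 3) on leaving out 1 library. The cause of these moves was not tested. Without scaling, 86.25% of calls were higher, against 69.98%. With no filter it was 82.39%, and with the block 85.59%.

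Replicate numbers were shared between groups, but same-numbered libraries did not deviate together (correlations of 0.004, -0.02 and -0.05), nor did every library correlate best with its own number, so the block is given here alone. No alternative reversed a called direction. The median SE of 0.24 leaves changes under 2-fold mostly unresolved, and members below 1 TPM rest on few reads.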
